A study of Mus musculus with 2 samples.

Results

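S phase genes are genes whose transcripts accumulate as a cell copies its DNA, and 34 of them were followed here in single cells of EMT6 tumors. The members were given as a list of gene symbols, and all 34 were found among the 55450 genes of the deposited feature tables. EMT6 is a mouse mammary carcinoma line used as a model of triple-negative breast cancer, and 200000 cells were injected under the skin of young female BALB/c mice, whose immune system is intact. Single-cell RNA sequencing (10x Genomics, 3′ chemistry) was run on 2 libraries, each a pool of tumors from 3 mice. Both groups received LLY-283, an inhibitor of the arginine methyltransferase PRMT5, at 50 mg/kg for 3 days on and 4 days off, and Olaparib, an inhibitor of PARP enzymes, at 50 mg/kg daily. The Combo group also received anti-PD-1, an antibody against an inhibitory receptor of T cells, at 200 µg every 3 days, and the other group is named Olaparib + LLY-283. No untreated tumor was analysed here. With 1 library per group there is no replicate check, so group, pool and library cannot be told apart. Every interval below covers counting error only.

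The Olaparib + LLY-283 library held 16115 cells with a median of 7376 UMIs, and the Combo library held 7542 cells with a median of 3614 UMIs (a UMI, or unique molecular identifier, marks 1 captured transcript). The filters on genes, mitochondrial UMIs and doublets left 13974 and 5672 cells, and 39 cell barcodes occurred in both libraries. The limit on mitochondrial UMIs alone left out 81 cells of Olaparib + LLY-283 and 1582 of Combo, so cell quality differed between the libraries. Tumor cells, gated on Krt8, Krt18 and Epcam, numbered 9287 and 2609. Their depth differed widely, with medians of 9198 UMIs in Olaparib + LLY-283 and 47204 in Combo. Levels are given as counts per 1000000 UMIs (CPM) over all cells of a class, without thinning unless stated, whereas shares of tumor cells and splits of tumor cells by their transcripts were made after thinning each cell to equal depth.

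Before DNA is copied, the MCM2-7 helicase is loaded onto replication origins together with CDC6, and it is switched on by CDC45 and the GINS complex when S phase starts. Polymerases, the sliding clamp PCNA and its loaders then extend the new strands, ribonucleotide reductase and thymidylate synthase supply the nucleotides, and chaperones put histones back behind the fork. Many of these genes are induced at the G1/S border by E2F transcription factors, which bind short GC-rich motifs close to the start site.

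RefSeq promoter windows (build GRCm38.p6, 250 bases before to 50 bases after the start) were matched for 26 of the 34 members. Windows were searched on both strands for the E2F letters TTTCCCGC, TTTCGCGC, TTTGCCGC and TTTGGCGC, whose matches can overlap each other. At least 1 match was present in 11 of the 26 members (42.3%), compared with 2.60% of all 27025 genes with a window. Of the 18 windowed genes of a fixed G2 and mitosis list, 1 held a match, and 18 of 49 windowed genes of a fixed list of other replication genes did. The CCAAT box was present in 19 of the 26 members (73.1%) and in 41.1% of all genes. It was also present in 16 of the 18 G2 and mitosis genes and in 24 of the 49 other replication genes, so neither motif is particular to the members. The 8 members with no window were Ccne2, Dscc1, Gins2, Gmnn, Mcm4, Rfc2, Tipin and Usp1. A match is a description of the letters only, and the members were not tested for enrichment. The stretch of 170 bases that ends just before the start is shown for 4 members whose matches lie upstream of the start, with the matched letters in capitals and everything else in lower case, 5′ to 3′ along the gene. Mcm6 and Mcm5 are shown because each carries overlapping matches on opposite strands, and Dtl and Pola1 because they carry a single match near to and far from the start.
Mcm6: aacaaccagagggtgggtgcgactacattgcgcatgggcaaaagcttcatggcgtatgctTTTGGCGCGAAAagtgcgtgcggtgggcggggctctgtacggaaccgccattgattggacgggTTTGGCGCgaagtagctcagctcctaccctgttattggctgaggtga
Mcm5: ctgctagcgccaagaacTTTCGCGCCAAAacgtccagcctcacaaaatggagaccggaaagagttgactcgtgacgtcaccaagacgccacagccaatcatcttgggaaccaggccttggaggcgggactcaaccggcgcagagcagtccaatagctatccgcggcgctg
Dtl: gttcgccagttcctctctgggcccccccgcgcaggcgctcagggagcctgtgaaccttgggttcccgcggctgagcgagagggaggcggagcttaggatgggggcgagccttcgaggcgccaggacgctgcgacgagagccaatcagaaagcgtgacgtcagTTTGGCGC
Pola1: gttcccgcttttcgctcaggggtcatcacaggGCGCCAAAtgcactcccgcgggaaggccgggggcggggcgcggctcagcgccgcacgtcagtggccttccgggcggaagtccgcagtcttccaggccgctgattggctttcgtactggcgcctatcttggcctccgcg
The Mcm6 stretch lies at chr1:128359706-128359875 on the minus strand, with matches that begin 110, 106 and 47 bases before the start. The Mcm5 stretch lies at chr8:75109339-75109508 on the plus strand, with matches 153 and 149 bases before the start. The Dtl stretch lies at chr1:191575545-191575714 on the minus strand, where the match begins 8 bases before the start. The Pola1 stretch lies at chrX:93632156-93632325 on the minus strand, with its match 138 bases before the start.

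In tumor cells all 34 members were detected in both libraries, and their summed level was 1702 CPM in Olaparib + LLY-283 (95% exact Poisson interval, 1694 to 1710) and 1859 CPM in Combo (1852 to 1867). The log2 ratio of Combo over Olaparib + LLY-283 was 0.13 (0.12 to 0.14). Chromatin and histone members contributed most, with 477 and 525 CPM in Olaparib + LLY-283 and Combo. The MCM2-7 helicase followed with 296 and 331 CPM, then polymerase, clamp and Okazaki-fragment members with 280 and 295 CPM. Nucleotide supply and uracil removal gave 260 and 286 CPM, fork checkpoint and turnover members 223 and 247 CPM, and origin licensing, firing and their control 166 and 176 CPM. Every one of these sums was higher in the Combo library, each by under 1.5-fold. Levels of different genes can be set side by side in these data because 3′ counting gives 1 UMI per transcript whatever its length, apart from differences in capture.

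The chromatin group held the most abundant member, Nasp, a chaperone of histone H3 (chromosome 4, 116601052 to 116627941 in GENCODE M21), at 168.6 CPM in Olaparib + LLY-283 and 184.0 CPM in Combo. Slbp, which binds the stem-loop of replication-dependent histone mRNA, had 126 and 117 CPM. Hells, a chromatin remodeler needed for DNA methylation (chromosome 19, 38930915 to 38971051), had 99.0 and 131 CPM, the largest ratio of Combo over Olaparib + LLY-283 of all members. Uhrf1, which recruits the maintenance methyltransferase to newly copied DNA, had 31.9 and 40.6 CPM. Casp8ap2 (FLASH), a factor of histone gene expression, had 33.1 and 34.5 CPM, and Chaf1b, a subunit of the histone chaperone CAF-1, had 18.9 and 18.4 CPM. Hells and Uhrf1, the 2 members tied to DNA methylation, were thus higher in the Combo library and Slbp and Chaf1b were not, where 61.2% of all genes had a log2 ratio above 0. In cells with 10000 to 30000 UMIs the log2 ratio was -0.79 for Hells and -0.71 for Uhrf1, so the direction of both turned there. This was not particular to the 2 genes, as 0 of the 34 members were above 0 in that range and their median was -0.88. The range takes in unlike parts of the 2 libraries, as described below.

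The 6 helicase subunits spanned a narrow range. Mcm7 had 70.1 CPM in Olaparib + LLY-283 and 64.8 CPM in Combo, and it was the only subunit lower in Combo. Mcm2 was lowest with 36.5 and 44.4 CPM. The others had 40.9 and 48.9 CPM for Mcm3, 39.9 and 48.0 CPM for Mcm4, 58.9 and 67.2 CPM for Mcm5 and 49.3 and 57.3 CPM for Mcm6. The proteins act as a ring with 1 copy of each subunit, and the transcript levels of the ring differed by less than 2-fold in either library.

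Among the genes that extend DNA, the clamp Pcna (chromosome 2, 132249162 to 132253314) was most abundant at 118 and 114 CPM, and the clamp-loader subunit Rfc2 followed at 58.4 and 67.7 CPM. The flap endonuclease Fen1, which trims Okazaki fragments, had 25.2 and 27.3 CPM. The primase subunit Prim1 had 22.9 and 26.8 CPM, the polymerase alpha subunit Pola1 19.8 and 24.2 CPM, and Rpa2, a subunit of the single-strand binding protein, 22.9 and 23.0 CPM. Dscc1, part of the clamp loader that links replication to sister-chromatid cohesion, was lowest with 13.1 and 12.8 CPM. Prim1 and Pola1, which belong to the same enzyme, were both higher in Combo, and Prim1 was above Pola1 in either library.

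Of the nucleotide genes, thymidylate synthase Tyms had 109 and 114 CPM, and the reductase subunits Rrm1 and Rrm2 had 76.5 and 81.6 CPM and 68.3 and 81.9 CPM. Ung, which removes uracil from DNA (chromosome 5, 114130386 to 114139323), was the least abundant member in Olaparib + LLY-283 with 6.12 CPM and had 7.68 CPM in Combo. In the licensing group Gmnn (geminin, the inhibitor of relicensing) had 53.0 and 59.7 CPM and the GINS subunit Gins2 39.5 and 40.3 CPM. E2f8, a repressor of E2F target genes, had 37.9 and 36.2 CPM, and the helicase activator Cdc45 had 17.4 and 21.8 CPM. The loader Cdc6 and the cyclin Ccne2, which act around the G1/S border, were scarce, at 8.22 and 9.95 CPM and at 10.1 and 7.60 CPM. In the fork group Usp1, a deubiquitinase of PCNA and FANCD2, had 92.3 and 106.7 CPM and the fork-protection factor Tipin 77.4 and 76.9 CPM. The checkpoint mediator Clspn (claspin; chromosome 4, 126556935 to 126593903) had 32.2 and 40.1 CPM, the ubiquitin-ligase receptor Dtl 14.1 and 15.5 CPM, and the WD-repeat gene Wdr76 6.76 and 7.52 CPM. Levels thus ran over a more than 20-fold range within the list, and the scarce end was held by genes of the G1/S border, Ung and Wdr76.

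**Figure D1:**
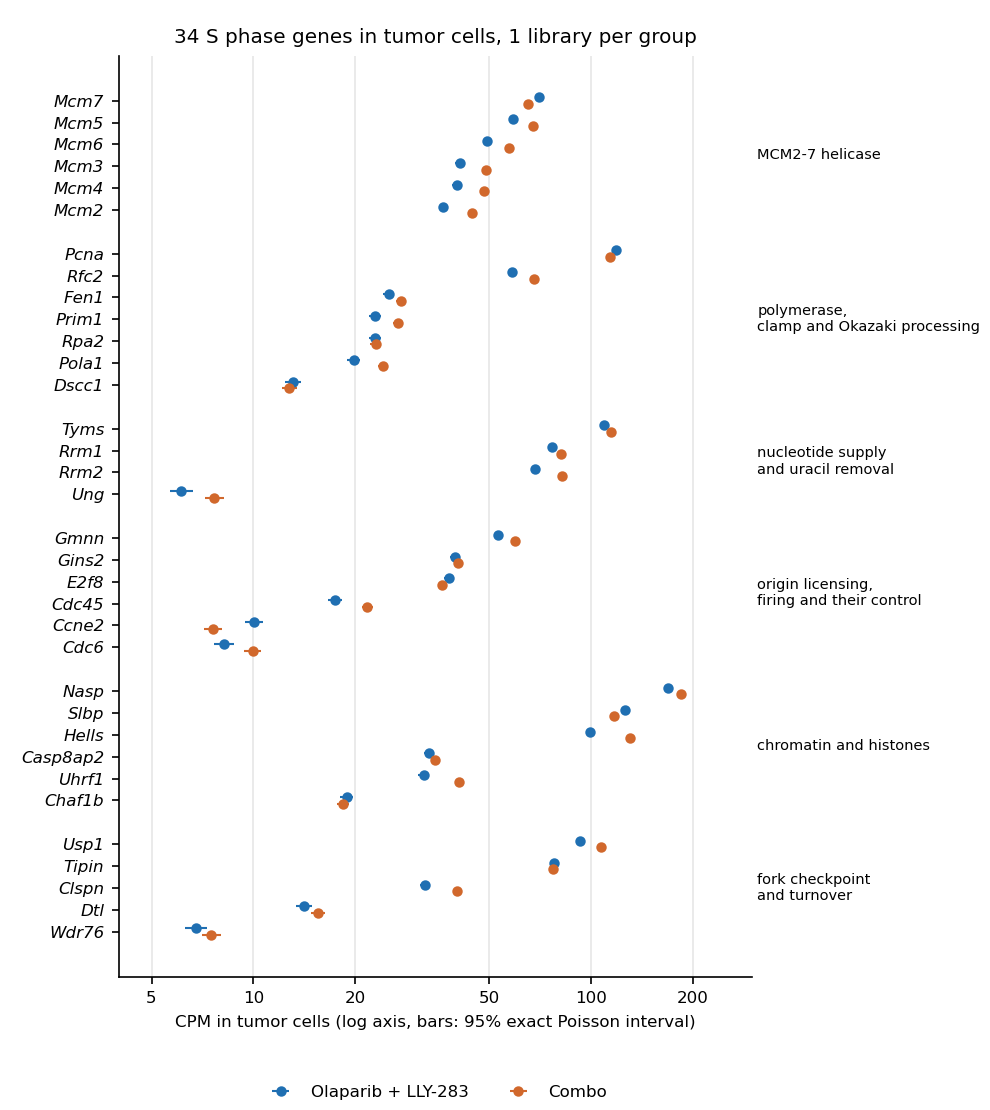
CPM of each of the 34 members in tumor cells (horizontal log axis, points with 95% exact Poisson intervals) in the Olaparib + LLY-283 (blue) and Combo (orange) libraries, grouped by role. The 2 libraries lie close together for every member, from about 6 CPM for Ung to 168.6 and 184.0 CPM for Nasp, and most orange points sit slightly to the right.

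Between the libraries, 0 of the 34 members differed by over 1.5-fold in tumor cells, where 7.01% of the 13518 genes with at least 100 UMIs did (4.73% higher and 2.29% lower in Combo). At a smaller limit of 1.2-fold, which was chosen after the values were seen, 9 members were higher in Combo (26.5% of the members and 19.1% of all genes) and 1 was lower (2.94% of the members and 8.94% of all genes). The median log2 ratio of the members was 0.16, compared with 0.06 for all genes and 0.11 for 58 other replication genes, of which 0 passed 1.5-fold. The counting interval lay above 0 for 23 members (67.6%, against 39.8% of all genes) and below 0 for 5 (14.7%, against 21% of all genes). Whether an interval excludes 0 also depends on the UMIs of a gene, and all genes were not matched to the members in abundance. The largest rises were those of Hells (log2 0.40, 0.37 to 0.44), Uhrf1 (0.35, 0.28 to 0.41), Ung (0.33, 0.18 to 0.47), Clspn (0.32, 0.25 to 0.38) and Cdc45 (0.32, 0.23 to 0.41). The largest fall was that of Ccne2 (log2 -0.41, -0.53 to -0.28), followed by Mcm7 (-0.11, -0.16 to -0.07) and Slbp (-0.10, -0.14 to -0.07). None of these differences can be assigned to anti-PD-1, since each group was 1 pool.

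The difference in S-positive tumor cells between the libraries depended on the depth to which cells were thinned and on which cells were deep enough to enter. Each cell with at least 5000 UMIs (7874 and 2470 cells) was thinned to 5000 UMIs and called S-positive at 10 or more member UMIs. The expected share was 33.0% in Olaparib + LLY-283 (95% Clopper-Pearson interval, 32.0 to 34.1) and 33.7% in Combo (31.9 to 35.6), a difference of 0.73 percentage points (-1.39 to 2.88) whose interval included 0. Thinned to 2000 UMIs with 4 or more member UMIs required, the difference was 1.56 points (-0.54 to 3.70). With cells of at least 10000 UMIs thinned to 10000 UMIs and 20 or more member UMIs required, the shares were 37.4% and 32.7%, a difference of -4.76 points (-7.14 to -2.36) in the other direction. That setting also left out all cells under 10000 UMIs, so depth of thinning and choice of cells changed together. Without thinning the same call gave 55.5% and 90.7%. No member UMI at all was expected in 1.82% and 2.85% of the thinned cells. The share called positive for the G2 and mitosis list by the same limit was 33.0% and 31.4%, and 15.9% and 17.3% of cells were positive for both lists, compared with 10.9% and 10.6% if the 2 calls were unrelated. S and G2 transcripts therefore shared cells more often than the product of their shares.

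The level of the members changed with the number of UMIs per cell inside each library. When the tumor cells of Olaparib + LLY-283 were put into 4 equal groups by UMIs, the summed level was 1250, 1470, 1708 and 1881 CPM from the shallowest to the deepest. In Combo the 4 groups had 1056, 1185, 1781 and 2404 CPM. The G2 and mitosis list moved the same way, from 1176 to 2688 CPM and from 881 to 3074 CPM, while Krt8 and Krt18 stayed between 941 and 1112 CPM and between 859 and 944 CPM. Of the 4 groups, the deepest was thus highest for both lists in either library, and Combo was below Olaparib + LLY-283 in the 2 shallower groups and above it in the 2 deeper ones.

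Fixed ranges of UMIs gave another order. Cells of Olaparib + LLY-283 had 1252 CPM at 500 to 5000 UMIs, 1443 CPM at 5000 to 10000, 1849 CPM at 10000 to 30000, 1761 CPM at 30000 to 60000 and 1750 CPM above 60000, where only 6 cells lay. Cells of Combo had 1854, 1602, 1031, 1426 and 2354 CPM in the same ranges, with 139 and 80 cells in the first 2. The level therefore peaked at 10000 to 30000 UMIs in Olaparib + LLY-283, and it fell and then rose in Combo. Combo was lower at 10000 to 30000 and at 30000 to 60000 UMIs and higher in the other 3 ranges, with intervals that did not overlap in any range. At 10000 to 30000 UMIs (3912 and 349 cells) the log2 ratio was -0.84 (-0.88 to -0.81), so the direction of the sum turned. There 29 members passed 1.5-fold, each lower in Combo, where 8.96% of the 11306 genes with at least 100 UMIs were lower and 6.6% higher by as much. Both ways of grouping by UMIs thus held groups with Combo higher and groups with Combo lower.

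**Figure D2:**
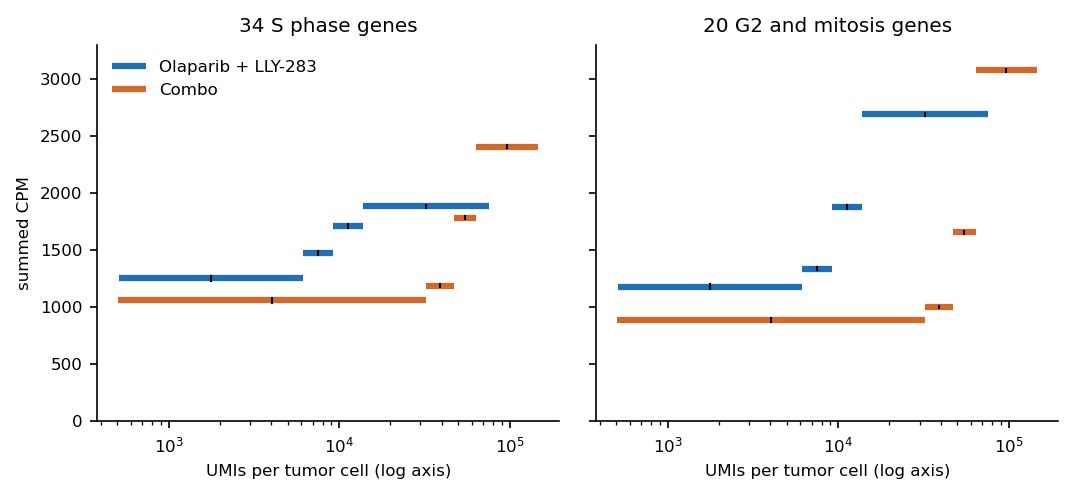
Summed CPM (vertical axis, from 0) of the 34 members (left) and of 20 G2 and mitosis genes (right) in tumor cells put into 4 equal groups by UMIs per cell (horizontal log axis) within each library; a bar spans the UMIs of its group and the black tick is the 95% exact Poisson interval. Both lists climb from left to right in both libraries, from 1250 to 1881 CPM and from 1056 to 2404 CPM for the members.

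Next, the members were followed across tumor cells of one library. Cells were thinned to 5000 UMIs and ranked by the UMIs of the other 33 members, so that a member's own counts played no part in its ranking, and the 25% of cells with most (S-high, 1968 cells in Olaparib + LLY-283 and 617 in Combo) were set against the 25% with fewest (S-low). All 34 members were higher in S-high cells in both libraries. Of the 31 members with at least 100 thinned UMIs in each library, 31 passed 1.5-fold in both, where 10.7% of 8246 genes outside the list did when cells were ranked by all 34 members. The median of the smaller of the 2 log2 ratios was 2.41 for the members and -0.01 for those other genes. The members therefore rose together across the tumor cells of both libraries.

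The size of that common rise differed widely between members. Clspn rose most steadily, from 3.86 to 70.6 CPM in Olaparib + LLY-283 (log2 4.18, 3.71 to 4.64) and from 2.27 to 95.9 CPM in Combo (5.30, 4.26 to 6.35). Cdc6 went from 1.22 to 22.2 CPM (log2 4.13, 3.31 to 4.95) and from 0.324 to 27.2 CPM (5.82, 3.49 to 8.15), where the lower Combo value is a single UMI. Both were scarce in S-low cells. Rrm2, the regulated subunit of ribonucleotide reductase, followed with 13.2 against 141 CPM (log2 3.41) and 12.0 against 161 CPM (3.73), whereas its partner Rrm1 moved by 1.92 and 2.26. Mcm3 moved most of the helicase subunits (3.10 and 3.10) and Mcm7 least (1.88 and 1.90). At the weak end stood Slbp, with 83.5 CPM in S-low and 198 CPM in S-high cells of Olaparib + LLY-283 (log2 1.24, 1.52 in Combo), E2f8 (1.33 and 1.54), Usp1 (1.47 and 1.84), Rfc2 (1.48 and 1.89), Casp8ap2 (1.72 and 1.52) and Cdc45 (1.56 and 1.53). Pcna and Nasp moved by 1.78 and 1.89 and by 1.69 and 2.00, since both kept a level of 56.1 to 84.7 CPM in S-low cells.

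Genes outside the list moved with it. Of 46 other replication genes with enough UMIs, 42 passed 1.5-fold in both libraries, as did 20 of the 20 G2 and mitosis genes, with medians of 1.67 and 1.59 for the smaller log2 ratio. Among the 10 genes outside the list with the largest smaller ratio were the histone genes Hist1h1b (log2 4.23 and 5.14), Hist1h2ap (3.70 and 4.61) and Hist1h2ae (3.09 and 3.49), the cohesion acetyltransferase Esco2 (3.91 and 4.35), the helicase Brip1 (3.52 and 4.90), the replication initiation factor Mcm10 (3.29 and 5.67), Slfn9 (3.27 and 3.84) and the histone chaperone Asf1b (3.05 and 3.33). Near-identical histone genes can share reads, so their single values are uncertain. Hist1h1b reached 286 and 382 CPM in S-high cells, by value above every member in either library. Capture can differ between histone genes and the members and was not compared, so this is no ranking of abundance. The 4 replication genes that did not pass in both were Orc3, Orc4, Orc5 and the polymerase delta subunit Pold4, which was lower in S-high cells (log2 -0.61 and -0.70). S-high cells also had more UMIs before thinning (medians 11740 against 8598, and 63186 against 39694) and more G2 and mitosis transcripts (2178 against 678 CPM, and 2314 against 447 CPM). Their Krt8 and Krt18 level was 861 against 1045 CPM and 861 against 858 CPM, and the part of depth in these ratios was not tested.

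The members also differed in how late in the cycle they were found. The 25% of tumor cells with most UMIs of the 20 G2 and mitosis genes, none of which is a member, were compared with the 25% with fewest at 5000 UMIs. The summed level of the members was 1963 CPM in G2M-high and 912 CPM in G2M-low cells of Olaparib + LLY-283, and 2183 and 817 CPM in Combo. Of the 31 members, 25 passed 1.5-fold in both libraries, where 7.03% of 8226 genes in neither list did, and 28 of 46 other replication genes did. Clspn (log2 2.66 and 3.20), Rrm2 (2.45 and 2.52), Tyms (2.03 and 2.19), Gmnn (2.01 and 2.43), Rrm1 (1.96 and 2.39) and Fen1 (1.79 and 1.91) were well above. Ung had 2.64 CPM in G2M-high and 4.98 CPM in G2M-low cells of Olaparib + LLY-283 (log2 -0.90, -1.58 to -0.22) and 2.92 and 1.94 CPM in Combo (0.55, -0.89 to 1.99). Cdc6 had -0.33 (-0.96 to 0.31) and 1.97 (0.62 to 3.32). For each of these scarce genes the interval included 0 in 1 of the 2 libraries.

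The members parted further among S-high cells, where the 50% with more G2 and mitosis UMIs were compared with the 50% with fewer (984 cells on either side in Olaparib + LLY-283 and 308 in Combo). There 20 members were lower and 8 higher with G2M transcripts in both libraries, and the interval excluded 0 in both for 12 of the former and 2 of the latter. Of the 8226 genes in neither list with at least 100 thinned UMIs in each library, 26.3% were lower and 32.1% higher in both, and the interval excluded 0 in both for 2.41% and 3.36%. As shares of the members, the same 4 counts are 58.8%, 23.5%, 35.3% and 5.88%. The S-high cells were chosen by member UMIs, and the genes in neither list had no part in that choice. Shares of members and of those genes are therefore not a like comparison. Ung, active in repair of newly made DNA, fell most, from 21.3 to 5.89 CPM (log2 -1.84, -2.43 to -1.25) and from 35.1 to 7.79 CPM (-2.12, -3.01 to -1.24). Cdc6, which loads the helicase before S phase, went from 30.1 to 14.2 CPM (-1.07, -1.48 to -0.67) and from 39.6 to 14.9 CPM (-1.39, -2.07 to -0.70). Mcm3 (-0.57 and -0.73), Hells (-0.61 and -0.49), Rpa2 (-0.44 and -0.75), Uhrf1, Mcm4 to Mcm7, Gins2 and Nasp completed the 12, so that 5 of the 6 helicase subunits were among them. Ccne2, whose protein starts S phase, was lower as well (-0.65 and -0.66), but its Combo interval of -1.46 to 0.13 included 0. In the other direction Tyms went from 146 to 214 CPM (0.55, 0.41 to 0.68) and from 168 to 225 CPM (0.42, 0.19 to 0.65), and Rrm1 from 106 to 138 CPM (0.38, 0.21 to 0.54) and from 101 to 142 CPM (0.49, 0.19 to 0.78). Usp1 (0.36 and 0.25), Cdc45 (0.24 and 0.26), Prim1, Pola1, Gmnn and E2f8 were the other 6 higher in both. Ung, Cdc6 and most helicase subunits were thus richer in S-high cells with few mitotic transcripts, and Tyms and Rrm1 in S-high cells with many, in both libraries. Rrm2 differed from Rrm1 here, with 0.06 and -0.19.

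**Figure D3:**
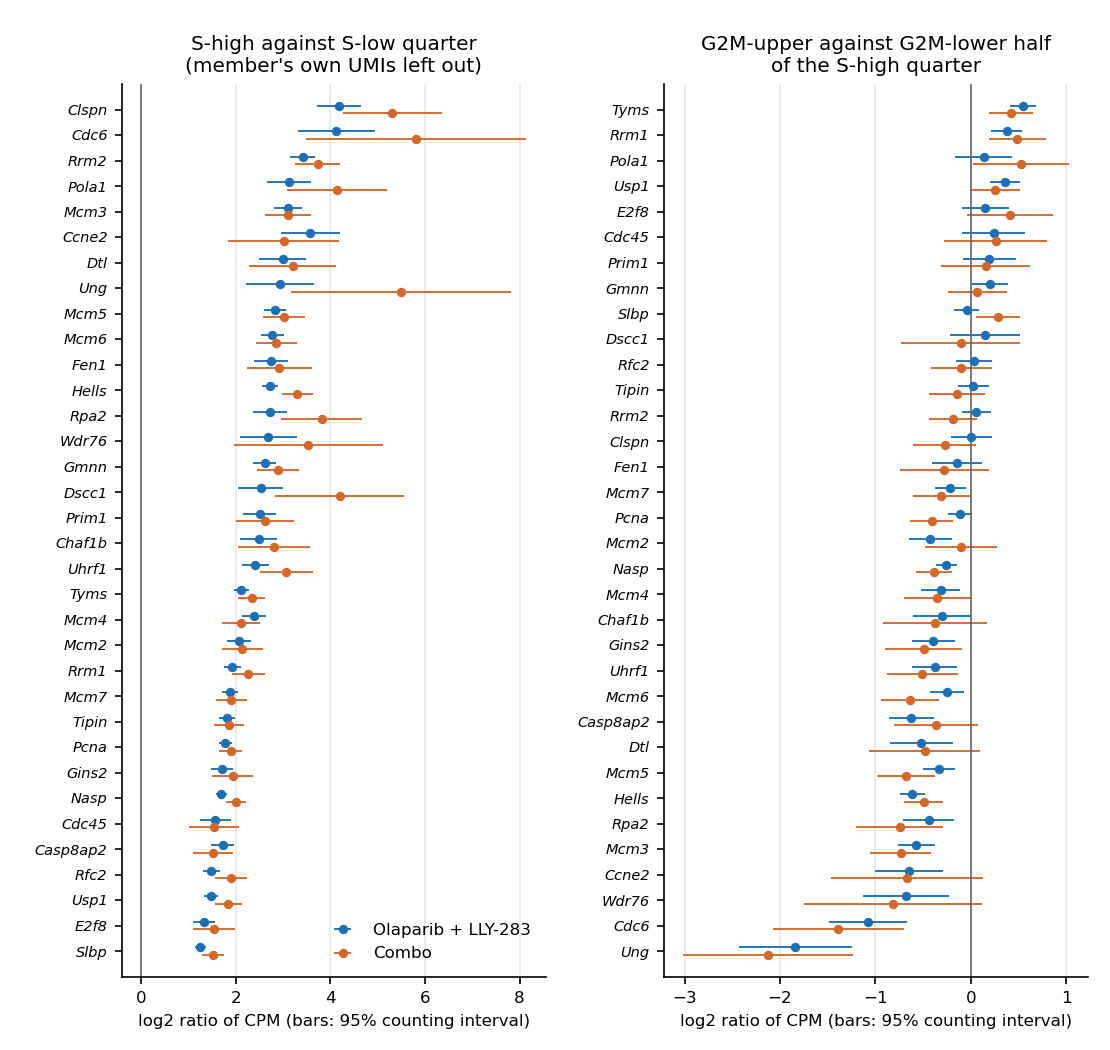
Log2 ratio of CPM for each member (points with 95% counting intervals) in tumor cells thinned to 5000 UMIs, for Olaparib + LLY-283 (blue) and Combo (orange). Left, S-high against S-low cells, where all 34 members lie above 0; right, the 50% of S-high cells with more against the 50% with fewer G2 and mitosis UMIs, where Tyms and Rrm1 lie above 0 and Ung and Cdc6 farthest below.

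Outside the tumor cells, each class was gated on its own marker UMIs and is named after them. By value, the sum of the members was lower in every class than in the tumor cells of the same library. B-like cells (1 and 8) and mast-like cells (7 and 1) were too few to be described further. Macrophage-like cells (656 and 332 cells, 11 of 11 markers detected in both) had 894 CPM (846 to 943) in Olaparib + LLY-283 and 848 CPM (821 to 876) in Combo, which is 52.5% and 45.6% of the tumor cells' level. Monocyte-like cells (151 and 233) had 811 and 835 CPM, and neutrophil-like cells (483 and 1193) had 845 and 652 CPM. Fibroblast-like cells (281 and 92) had 826 and 804 CPM. The rarer T and NK-like cells (57 and 43) had 1425 CPM (1153 to 1742) and 1407 CPM (1276 to 1549). The first of these intervals includes the tumor level of 1702 CPM in Olaparib + LLY-283. Osteoclast-like cells (48 and 25) had 1124 and 1009 CPM, endothelial-like cells (27 and 10) 1089 and 567 CPM, myogenic-like cells (39 and 52) 1081 and 653 CPM, and dendritic-like cells (10 and 21) 554 and 1451 CPM. By value alone, T and NK-like cells were highest of these classes in Olaparib + LLY-283, and dendritic-like cells in Combo. Neither order is clear. The T and NK-like interval overlapped that of osteoclast-like cells (964 to 1303 CPM) in the former and that of dendritic-like cells (1295 to 1619 CPM) in the latter. In Combo, 3 dendritic-like cells with many member UMIs and low dendritic markers, described below, held 51864 of the 218528 UMIs of their class. The intervals of the 2 libraries did not overlap in neutrophil-like cells (758 to 940 and 619 to 685 CPM), nor in endothelial-like and dendritic-like cells, which were few.

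Mature neutrophils do not divide, so the level of neutrophil-like cells was taken as a reference. By both gauges below, it came with more tumor transcripts than in macrophage-like, monocyte-like and fibroblast-like cells. An overlap with this reference therefore does not show that a class lacks cycling cells. The Krt8 and Krt18 level of neutrophil-like cells was 285 and 144 CPM, or 29.0% and 15.7% of that of tumor cells, and their median depth was 682 and 1948 UMIs. In macrophage-like cells the keratin level was 11.7% and 8.34%, in monocyte-like cells 10.1% and 8.18%, and in fibroblast-like cells 12.2% and 10.2% of the tumor level. Keratins are held low in every non-tumor class, since cells past the tumor gate were set aside as mixed. A second gauge of tumor RNA, not used by the gate (Sfn, Cst6, Klk10, Areg, Krt7 and Krt19, chosen after the first results), gave 44.9% and 22.5% in neutrophil-like and 17.1% and 11.4% in macrophage-like cells. The same gauge gave 25.6% and 16.1% in monocyte-like and 29.1% and 15.5% in fibroblast-like cells, above their keratin shares. In T and NK-like cells it was 30.7% and 33.4%, and in endothelial-like cells 49.4% and 10.8%. The member sum, at 49.6% and 35.0% of the tumor level in neutrophil-like cells, was above either gauge in both libraries. How much of it is free RNA from tumor cells was not tested.

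At an equal depth of 1000 UMIs, cells with 3 or more member UMIs made up 22.8% (21.9 to 23.6) and 24.8% (23.2 to 26.6) of tumor cells. The reference share in neutrophil-like cells was 4.77% (0.925 to 13.7, 59 cells) and 3.45% (2.46 to 4.69, 1118 cells). In Olaparib + LLY-283, 424 neutrophil-like cells had under 1000 UMIs and did not enter. Macrophage-like cells had 7.90% (5.78 to 10.5) and 7.17% (4.61 to 10.6), a difference between libraries of -0.73 percentage points (-4.21 to 3.16). Their intervals overlapped those of the neutrophil-like cells, narrowly in Combo. Fibroblast-like cells had 6.54% and 7.01%, and monocyte-like cells 5.42% and 5.87%, with intervals that also overlapped this reference. T and NK-like cells reached 18.7% (6.22 to 38.7, 26 cells) and 16.2% (6.66 to 30.8, 42 cells), which lay above the interval of the neutrophil-like cells in Combo and overlapped it in Olaparib + LLY-283. Unthinned, the share in macrophage-like cells was 25.2% and 80.4%, at median depths of 1988.5 and 12369 UMIs.

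**Figure D4:**
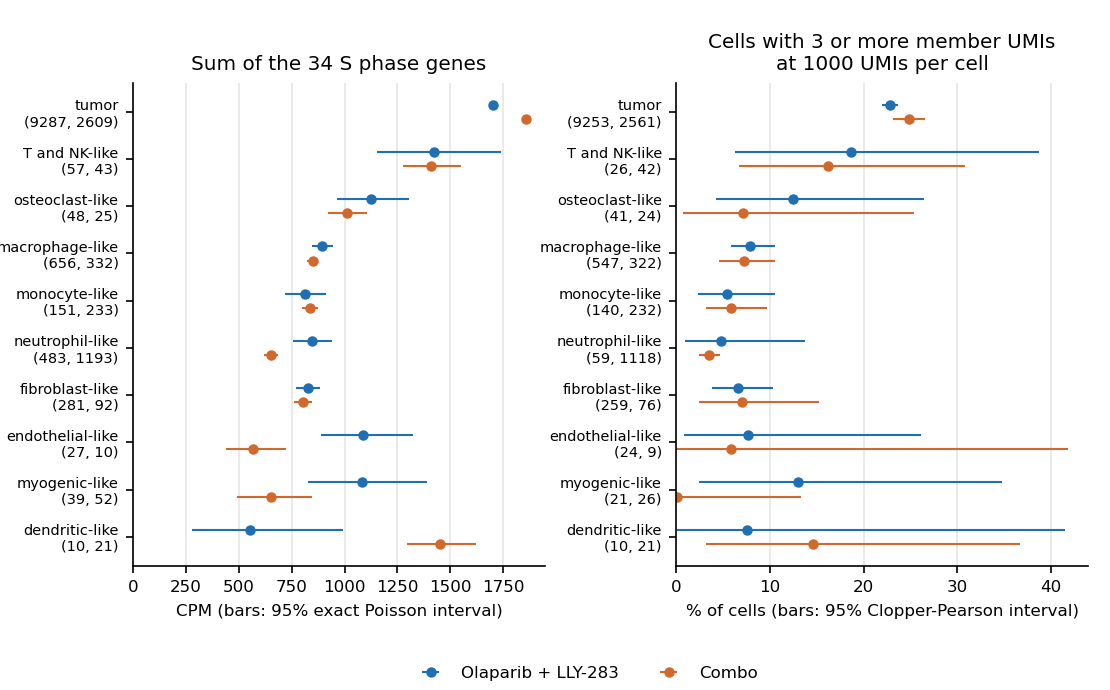
Left, summed CPM of the 34 members by cell class with 95% exact Poisson intervals; right, expected share of cells with 3 or more member UMIs after thinning to 1000 UMIs with 95% Clopper-Pearson intervals. Numbers in parentheses are cells in Olaparib + LLY-283 (blue) and Combo (orange). By value, tumor cells are highest in both panels, T and NK-like cells are next in Olaparib + LLY-283, and the neutrophil-like reference is at 4.77% and 3.45%.

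The S-positive share alone did not say which non-tumor cells cycle, but the other cell-cycle lists did separate some of them. Cells with at least 1000 UMIs were called S-rich when they held 3 or more member UMIs and 3 or more per 1000 UMIs. This call was made without thinning, so a deeper cell needed more member UMIs. In Combo the median depth of S-rich cells was 17049.5 UMIs in macrophage-like and 1651.5 UMIs in neutrophil-like cells. Counts of S-rich cells are therefore not comparable between classes or libraries. In macrophage-like cells 21 of 547 were S-rich in Olaparib + LLY-283 and 12 of 322 in Combo. Their G2 and mitosis level was 2822 CPM (2388 to 3311) against 530 CPM (492 to 570) in the other macrophage-like cells, and 3384 CPM (3142 to 3640) against 702 CPM (676 to 728). The other replication genes were at 3744 against 1139 CPM and at 3810 against 1082 CPM. Their keratin level was 113 CPM (41.4 to 246, 6 UMIs) against 109 CPM in the other macrophage-like cells. In Combo it was 98.3 CPM (60.8 to 150, 21 UMIs) against 74.8 CPM. Tumor cells had 982 and 918 CPM, but cells past the tumor gate were set aside as mixed, so low keratins follow from the gate. The second gauge of tumor RNA, which the gate did not use, was at 75.3 CPM (20.5 to 193, 4 UMIs) against 115 CPM. In Combo it was at 23.4 CPM (7.60 to 54.6, 5 UMIs) against 56.9 CPM (49.8 to 64.8). The intervals overlapped in Combo, and in Olaparib + LLY-283 that of the S-rich cells reached above the level of the others. Macrophage markers of the S-rich cells stood at 10084 against 11929 CPM and 14960 against 13071 CPM. A small set of macrophage-like cells in both libraries thus carried S, replication and mitosis transcripts together. By value the second gauge was not above that of their class, but it rests on 4 and 5 UMIs. Their macrophage markers and low keratins were conditions of the gate.

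Fibroblast-like cells showed a rise of G2 and mitosis genes in fewer S-rich cells. The 10 S-rich cells of 259 in Olaparib + LLY-283 had 2965 CPM of G2 and mitosis genes against 685 CPM, with keratins, limited by the gate, at 100.5 against 119 CPM. The 2 of 76 in Combo had 2303 against 484 CPM. The second gauge of tumor RNA was higher by value in the former, at 301 CPM (156 to 527, 12 UMIs) against 189 CPM (162 to 219), but these intervals overlapped. It was at 43.5 against 76.4 CPM in Combo. Among monocyte-like cells 3 of 140 and 6 of 232 were S-rich, with 3249 against 679 CPM and 870 against 544 CPM of G2 and mitosis genes. Their monocyte markers were lower, at 1444 CPM (746 to 2522) against 2501 CPM and at 1141 CPM (929 to 1386) against 2243 CPM, though the first interval is wide. The T and NK-like class held 2 and 3 S-rich cells, with 3881 against 2040 CPM and 2618 against 928 CPM. In the 3 cells of Combo the second gauge of tumor RNA moved along, at 1047 CPM (599 to 1701) against 111 CPM in the others and 486 CPM in tumor cells, while keratins were at 65.5 against 64.3 CPM. The part of tumor RNA in their level was not tested. In Combo, 3 of 21 dendritic-like cells were S-rich with 4261 against 300 CPM, but their dendritic markers were at 386 against 2478 CPM. Neutrophil-like cells of Combo showed no clear difference: the 4 S-rich cells of 1118 had 727 CPM (236 to 1696) of G2 and mitosis genes, overlapping the 580 CPM (549 to 612) of the others. Other replication genes were at 291 CPM (35.2 to 1050, from 2 UMIs) against 770 CPM, which lies inside that interval. The 2 S-rich neutrophil-like cells of 59 in Olaparib + LLY-283 had 2342 CPM with neutrophil markers at 1515 against 7020 CPM and the second gauge at 1240 against 402 CPM. S-rich tumor cells did not have a higher G2 and mitosis level than the other tumor cells (1881 against 2129 CPM, and 2014 against 2063 CPM). Those other tumor cells were themselves far above the other macrophage-like cells (530 and 702 CPM), so this contrast does not set the 2 classes apart. Against S-low cells only, S-high tumor cells were higher, at 2178 against 678 CPM and 2314 against 447 CPM.

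Members differed in how much they were limited to tumor cells. In 3 classes Hells was among the most limited, at 32.4% and 15.7% of its tumor level in macrophage-like cells (32.1 and 20.5 CPM), 11.4% and 16.6% in monocyte-like cells and 22.1% and 20.4% in fibroblast-like cells. It was less limited in Olaparib + LLY-283 in neutrophil-like (62.6% and 25.5%) and T and NK-like cells (75.8% and 28.4%). Clspn, at 31.1% and 28.2%, and Rrm2, at 31.3% and 38.6%, were also low in macrophage-like cells. Below Rrm2 there in both libraries were also Cdc45 (19.2% and 29.2%), Dscc1 (25.4% and 18.4%), E2f8 (22.9% and 30.6%) and Dtl (23.6% and 30.3%). In contrast, Pcna reached 91.6% and 91.7% of its tumor level there (108 and 104 CPM), and Gmnn 108% and 96.7% (57.4 and 57.7 CPM). Some members stood above 50% of their tumor level in macrophage-like cells of both libraries. They were Casp8ap2, Fen1, Gmnn, Mcm2, Mcm3, Mcm6, Pcna, Pola1, Rfc2, Rpa2, Ung and Wdr76. In neutrophil-like cells, only Pcna (69.3% and 53.5%) and Slbp (55.2% and 74.7%) did so in both. The share of all genes above this limit was not computed, so the members are compared only with each other. By role, polymerase, clamp and Okazaki members were best kept in macrophage-like cells (79.5% and 70.3%), and fork checkpoint and turnover members least (38.7% and 30.6%). In neutrophil-like cells the same 2 groups had 52.1% and 38.7%, and 34.5% and 27.0%.

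Single members stood out in other classes. Casp8ap2 stood at 96.2% and 109% of its tumor level in fibroblast-like cells and at 181% and 186% in T and NK-like cells. Wdr76 was the only member above its tumor level in monocyte-like cells of both libraries, at 11.3 CPM (3.08 to 28.9, 4 UMIs) and 11.5 CPM (7.64 to 16.6, 28 UMIs). In T and NK-like cells Casp8ap2, Mcm6, Prim1, Rfc2, Rpa2, Slbp and Wdr76 exceeded the tumor level in both libraries, each on 2 to 36 UMIs per library. The share of all genes that did so was not computed. The heat map of members by class shows that these exceptions do not follow 1 role.

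**Figure D5:**
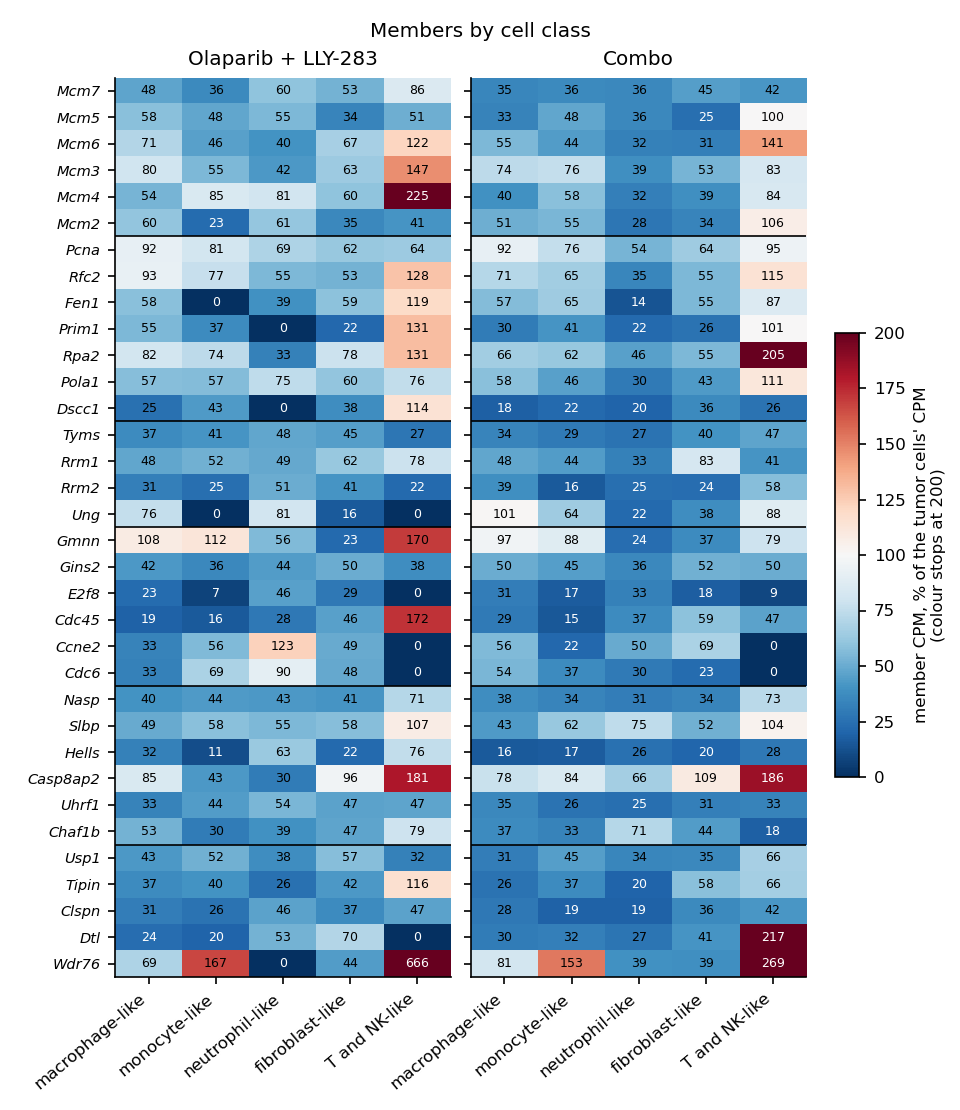
CPM of each member in 5 non-tumor classes as a percentage of its CPM in tumor cells of the same library, with black lines between roles and the value printed in each cell. Most cells are blue (below 100%), Pcna and Gmnn are near 100% in macrophage-like cells, and the T and NK-like column, which rests on 57 and 43 cells, holds most values above 100%.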

How the data were processed

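Tumors were dissociated, red cells lysed and dead cells removed before 10x Genomics 3′ sequencing. The authors aligned reads to mm10 with Cell Ranger (6.1.2 per the file headers) and deposited raw UMI counts per gene and cell. The submitters' processing notes also name bcl2fastq 5.0.1 and Seurat 4.1.0. No cell annotation was used.

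Cells entered when they had 200 genes or more and less than 20% of UMIs from mitochondrial genes. Scrublet's automatic threshold (scanpy 1.11.5) called 0 doublets, so the cells with the highest scores were left out, 2055 and 284 in number, at 0.8% per 1000 cells. A class needed 5 times the pooled rate of its markers, 3 UMIs and 2 marker genes. Tumor cells needed summed UMIs of Krt8, Krt18 and Epcam at 25% of the pooled rate and 2 UMIs. Cells that passed a class gate and the tumor gate were set aside as mixed. So were cells that passed 2 unrelated class gates when the stronger marker enrichment was under 2 times the weaker. Mixed cells numbered 368 and 286. A cell with a stronger enrichment of 2 times or more kept that class, so some cells with markers of 2 classes remain. Cells that passed no gate stayed without a class (2559 and 767). CPM is the sum of UMIs over a class per 1000000 UMIs, with exact Poisson intervals. Ratios add 0.5 UMIs, with a normal interval on the log scale. Shares at equal depth are hypergeometric expectations with Clopper-Pearson intervals, and their difference has a Newcombe interval. Intervals cover counting error only. Functions were tested on simulated data. The members and lists were chosen with earlier results of these data known, and no p-value was computed. All 34 members are named, and genes outside the list are the 10 with the largest smaller ratio of S-high over S-low cells, of which 2 are not reported here. Comparisons by UMI groups and by G2 and mitosis genes, the second tumor gauge, the count at 1.2-fold and the class-free alternative were added after the data were seen.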

Additional observations from a re-analysis of the deposited data

Results flagged for a closer look

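The level of the members in cells left without a class was flagged, because these cells enter no comparison of the report and the level was above that of the neutrophil-like reference. These cells had too few UMIs of Krt8, Krt18 and Epcam for the tumor gate and passed no other gate. In the 2559 cells of this kind in Olaparib + LLY-283 the summed level was 1647 CPM (1622 to 1671), and in the 767 cells of Combo it was 1588 CPM (1559 to 1618), which is 96.7% and 85.4% of the tumor level. The G2 and mitosis list stood at 1805 and 1770 CPM. Krt8 and Krt18 were at 153 and 156 CPM, 15.6% and 17.0% of the tumor level, whereas the second gauge of tumor RNA was at 86.1% and 73.0%. At 1000 UMIs per cell, 19.4% and 16.9% of them were S-positive, against 22.8% and 24.8% of tumor cells. Whether they are tumor cells with little keratin RNA was not tested.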

How the results depend on the processing

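Each value has 1 library behind it, so leaving out a replicate was not possible. No paired analysis was possible because each group has 1 library and no result comes from a test. The log2 ratio of the member sum in tumor cells (0.13) was 0.11 with called doublets kept, 0.14 with a looser marker gate and 0.0848 as the mean of single-cell CPM, and it reversed to -0.84 in cells with 10000 to 30000 UMIs, where the count of members past 1.5-fold went from 0 to 29. The difference in S-positive tumor cells (0.73 percentage points) became -4.76 (-7.14 to -2.36, which excludes 0) when cells were thinned to 10000 UMIs, which by construction leaves out shallower cells, and 35.2 without thinning. The difference in S-positive macrophage-like cells (-0.73) became 55.3 without thinning. Limits on mitochondrial UMIs, a stricter gate, thinning to 2000 UMIs, leaving out Nasp, a minimum of 1000 UMIs per gene, scaling to the median gene and counting cells without a class as tumor cells left direction and count alike, except that the last turned the difference in S-positive tumor cells to -0.24, within its interval. Several non-tumor classes rest on under 60 cells per library, which limits the precision of their values.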
